A study of Mus musculus with 6 samples.

Results

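The nuclear genes of oxidative phosphorylation were followed in mouse taste cells at 2 and 6 months of age. They were taken as every row of the deposited table whose gene name begins with Nduf, Uqcr, Atp5 or Cox and a digit, or is Sdha, Sdhb, Sdhc or Sdhd. This gave 101 of 23361 genes, and the rule reads gene names only, although the group was proposed with earlier results of these data known. Of the 101 genes, 83 encode structural subunits of the 5 complexes (36 of complex I, 4 of complex II, 8 of complex III, 20 of complex IV and 15 of complex V). The other 18 encode assembly factors and related proteins (Ndufaf1 to Ndufaf7, several Cox genes, Atp5s and Atp5sl). A mean of at least 1 FPKM (fragments per kilobase of transcript, scaled to the mapped fragments) over the ages was required for every count below, and 97 members passed it. The remaining 4 were the tissue isoforms Cox4i2, Cox6a2, Cox7b2 and Cox8c. Subunits encoded by mitochondrial DNA were not found under the 26 names searched and were not analysed here.

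Taste receptor cells of the circumvallate and foliate papillae (CV/Fol taste cells) were harvested from enzyme-treated tongues of C57BL/6 mice, with no other treatment or genotype. The 2-month group had 3 libraries, each from a pool of 4 mice, and the 6-month group had 3 libraries, each from a pool of 3 mice, so both groups hold the mixed cell types of the harvested papillae. The table gives 1 FPKM value per age, so the spread between libraries is unknown, no difference below has a replicate check or a p-value, and the sequencing depth is unknown. Change is log2(FPKM + 1) at 6 months minus 2 months, and a gene was counted as higher or lower by the fold rule when its change was at least 0.3 in size. All 10 taste cell markers of the list were expressed at both ages, among them Gnat3, the taste G protein, at 84.7 FPKM at 2 months and 79.9 at 6 months. As deposited 6 of the 10 were higher at 6 months and 4 lower (8 and 2 after the sum scaling described below), with a median change of 0.10 and a range from -0.25 for Krt8 to 0.47 for Tas1r3. Of the keratinocyte markers, Krt5 was at 2179.8 FPKM at 2 months and 1962 at 6 months, Krt10 at 149.7 and 70.5, Lor at 1292 and 733, Ivl at 32.9 and 21.5, and Krt14, on the other side, at 1287 and 1533 FPKM. The table lists Krt4 at 0 at 6 months (7334 FPKM at 2 months), Krt6a at 0 at 2 months (3391 FPKM at 6 months) and Krt13 at 0 at both ages, and an exact 0 for such keratins can be a failed estimate, so no direction is read from them.

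Oxidative phosphorylation takes electrons from NADH at complex I and from succinate at complex II, passes them through ubiquinone to complex III and by cytochrome c to complex IV, where oxygen is reduced to water. Complexes I, III and IV pump protons across the inner mitochondrial membrane, and complex V, the ATP synthase, uses their return to make ATP. Nuclear genes for these subunits lie scattered over the genome, here on 19 chromosomes, and are known targets of nuclear respiratory factor 1 (NRF1), of GABP, a factor of the ETS family also called NRF2, and of YY1 and ERR alpha. Several complex IV subunits exist as a widely expressed form and a form of heart and skeletal muscle, testis or lung.

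To describe the DNA of these genes outside the expression values, the RefSeq promoters of the expressed structural subunits were searched on both strands for the cores of the named factors. A promoter was 250 bases before to 50 bases after the start of the gene. Of the 79 expressed structural subunits, 67 had a promoter in the table used. A gene counted as having a core when any of its promoters held it. The NRF1 core GCGCANGCG was in 20 of 67 (29.9%), against 15.0% of 9250 expressed genes with a promoter and 7.03% of all 27025 genes with a promoter. The ETS core CCGGAAG was in 16 (23.9%, against 19.9% of expressed genes and 9.93% of all). The YY1 core AAGATGGCG was in 7 (10.4%, against 3.59% and 1.64%) and the ERR core AAGGTCA in 8 (11.9%, against 3.81% and 5.38%). The cyclic AMP response element TGACGTCA was in 4 (5.97%, against 3.61% and 2.03%). At least 1 of the NRF1, ETS and YY1 cores was in 35 of the 67 subunits (52.2%), against 33.5% of expressed genes. The Sp1 core GGGCGG went the other way, with 27 of 67 (40.3%) against 68.9% of expressed genes and 38.2% of all. The letters of a core can overlap those of another, and a match describes the DNA only.

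The sequences below give 1 subunit for each complex, each an abundant or otherwise named member with a match near its start. They are the 120 bases directly before the RefSeq start in GRCm38.p6, all on the minus strand, and capitals mark NRF1 cores (forms of GCGCANGCG) or ETS cores (CCGGAAG or its complement). In Atp5k 2 NRF1 matches on opposite strands overlap.
Ndufs6, chr13:73328483-73328602: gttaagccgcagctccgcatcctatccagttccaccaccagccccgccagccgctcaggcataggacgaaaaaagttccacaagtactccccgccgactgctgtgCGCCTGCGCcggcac
Sdhd, chr9:50603850-50603969: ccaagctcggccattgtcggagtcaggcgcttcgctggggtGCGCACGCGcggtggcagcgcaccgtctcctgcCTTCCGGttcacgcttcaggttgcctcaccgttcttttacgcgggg
Uqcrh, chr4:116075071-116075190: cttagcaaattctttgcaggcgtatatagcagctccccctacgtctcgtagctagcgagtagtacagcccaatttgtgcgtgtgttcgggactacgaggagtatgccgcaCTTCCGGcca
Cox6b1, chr7:30626115-30626234: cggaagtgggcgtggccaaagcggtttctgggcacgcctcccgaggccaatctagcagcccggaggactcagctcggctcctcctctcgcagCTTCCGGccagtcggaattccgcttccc
Atp5k, chr5:108434400-108434519: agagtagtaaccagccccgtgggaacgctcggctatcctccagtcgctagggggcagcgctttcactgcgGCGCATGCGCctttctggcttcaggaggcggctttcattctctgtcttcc

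The members were expressed at high levels, and the levels followed the complexes (plot of FPKM by complex). Together they made up 2.73% of all FPKM at 2 months and 2.63% at 6 months. Median FPKM of the expressed subunits was 116.8 at 2 months and 109.5 at 6 months for complex I, 86.1 and 79.7 for complex II, 293.9 and 267.5 for complex III, 291.0 and 265.8 for complex IV, and 425.6 and 377.8 for complex V. ATP synthase was thus the highest and complex II the lowest at both ages. The assembly factors and related members had lower medians, of 8.44 and 8.13 FPKM, although Cox17, Cox20 and Cox14 reached the level of complex II subunits.

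**Figure D1:**
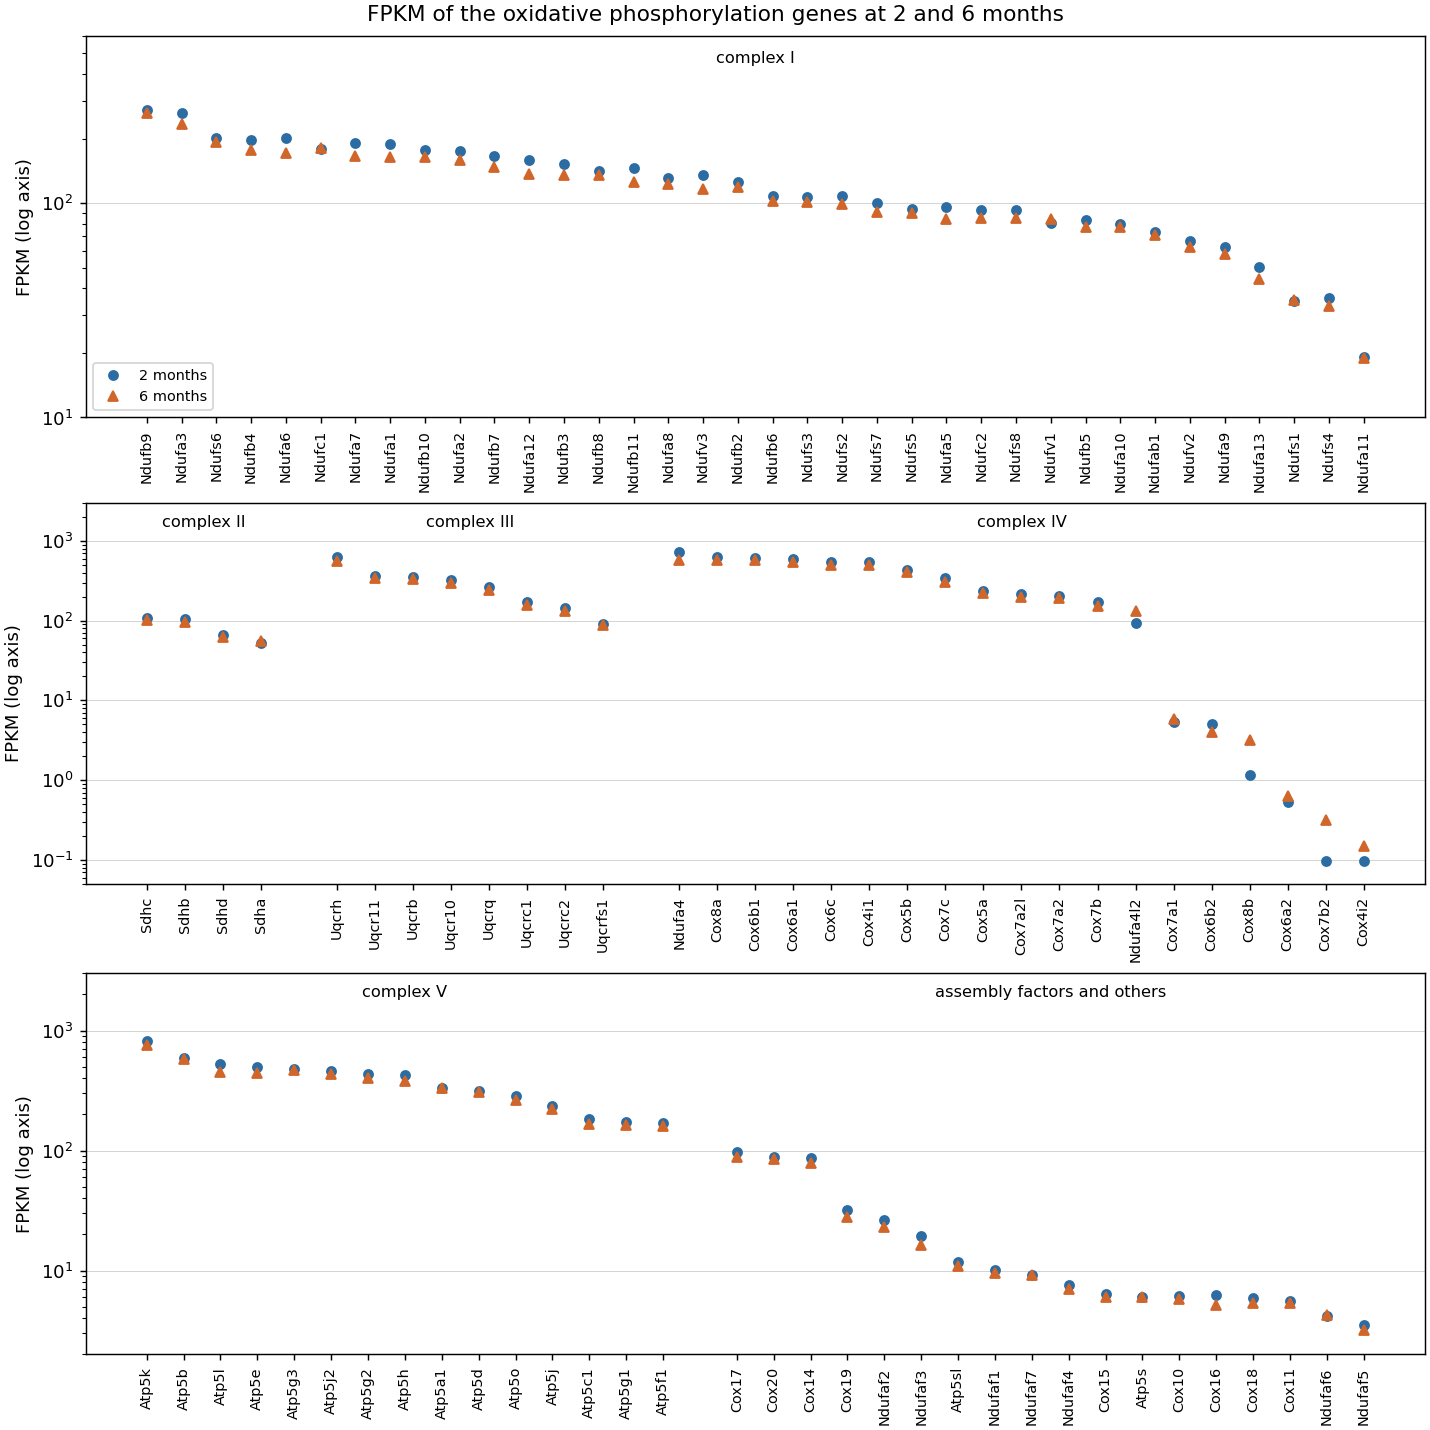
FPKM of each member at 2 months (circles) and 6 months (triangles), 1 value per age, on log axes whose range differs between the 3 panels, ordered by mean FPKM within each complex; Cox8c, listed at 0 at both ages, is not drawn. Most pairs of symbols nearly coincide, and Ndufa4l2 (94.1 and 131.4 FPKM) and Cox8b (1.15 and 3.18 FPKM) stand higher at 6 months.

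As deposited, 87 of the 97 expressed members were lower at 6 months and 10 were higher. Of the 12652 expressed genes, 53.7% were lower by any amount. After both ages were scaled to the same sum over genes other than small RNA genes, 57 members were lower and 40 higher. Under this sum scaling 29.3% of all expressed genes were lower. In pooled tissue, fewer cells of a type and less RNA per cell cannot be told apart. The size of the shift was small. Among the 79 expressed structural subunits, 71 were lower as deposited and the median change was -0.11 (quartiles -0.15 and -0.07), beside a median of -0.01 (quartiles -0.10 and 0.08) over all expressed genes. The same median was -0.09 with 70 of 79 lower after upper quartile scaling, and -0.01 with 46 of 79 lower after the sum scaling, which itself multiplied the 6-month values by 1.07 and moved the median of all expressed genes to 0.07. MicroRNA and small nucleolar RNA genes, which this last scaling leaves out, held 8.67% of all FPKM at 2 months and 10.8% at 6 months. Relative to the median expressed gene, the structural subunits were at -0.10, with 70 of 79 below it. By the fold rule, 2 of the 97 members were higher (3.32% of all expressed genes were) and 1 of the 97 was lower (4.96% of all expressed genes were). The lower count ranged from 0 to 10 over the settings tried, so no trait of the members is read from these small counts.

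The complexes were alike in their median change (plot of changes by complex). As deposited it was -0.11 for complex I (33 of 36 lower), -0.10 for complex II (3 of 4), -0.12 for complex III (8 of 8), -0.12 for complex IV (13 of 16), -0.10 for complex V (14 of 15) and -0.11 for the assembly factors and related members (16 of 18), and after the sum scaling all 6 medians lay between -0.02 and 0.00. The interquartile range over the structural subunits was 0.077, against 0.184 over all expressed genes and 0.066 over the cytosolic ribosomal protein genes described below.

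**Figure D2:**
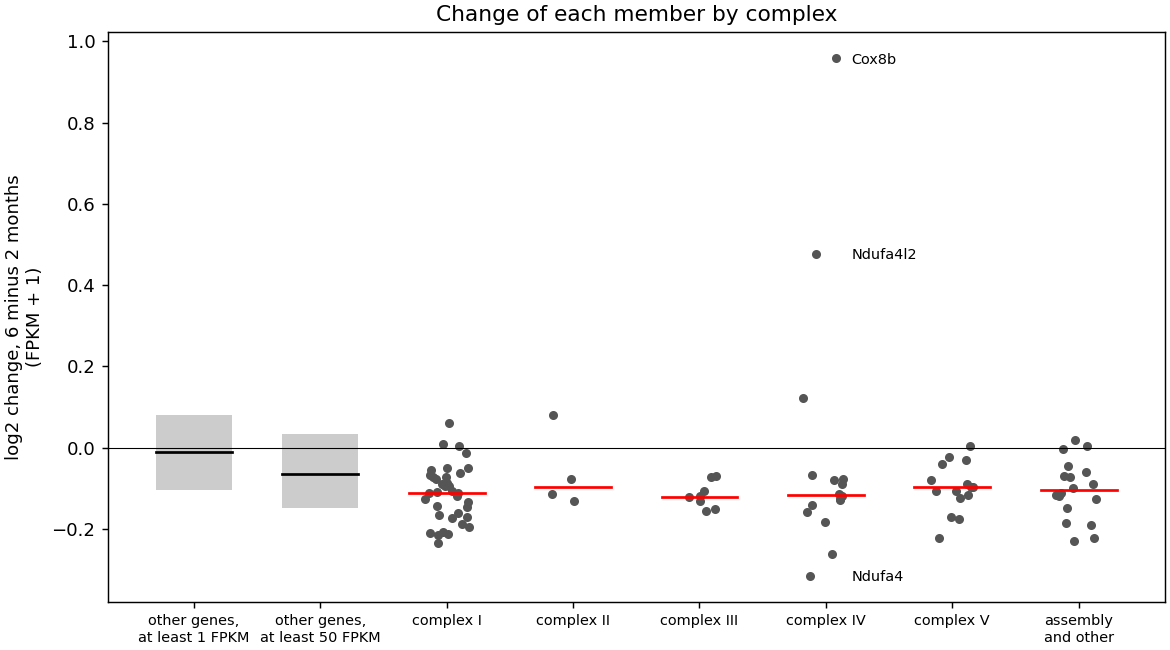
Change in log2(FPKM + 1), 6 minus 2 months, of each expressed member (points) with the median of each complex (red lines); grey boxes span the quartiles of the genes that are no members, with their medians as black lines. As deposited the points gather near -0.11 in every complex and Cox8b (0.96), Ndufa4l2 (0.48) and Ndufa4 (-0.32) lie apart, while the sum scaling raises every point by up to 0.10.

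The subunits are abundant and most have short transcripts, so they were set beside other genes of like level and length. At a mean level of 50 FPKM or more, 68.4% of 1713 other genes were lower as deposited, with a median change of -0.07 and an interquartile range of 0.18. The 72 structural subunits of that level had 67 lower (93.1%), a median of -0.11 and an interquartile range of 0.071. The narrower spread does not depend on the scaling of the ages, and the shift is partly shared by other abundant genes. Between 100 and 200 FPKM the medians were -0.12 for 29 subunits and -0.07 for 409 other genes. At 500 FPKM and over they were -0.13 for 9 subunits and -0.11 for 189 other genes, all 9 subunits and 82.0% of the others being lower. By length, at the same level of 50 FPKM or more, the 26 subunits with transcripts of 600 to 1000 bases had a median of -0.10 and 25 were lower, while 224 other genes of that length had a median of -0.14 and 90.2% were lower. For 1000 to 2000 bases the medians were -0.11 for 19 subunits and -0.09 for 549 other genes. Below 600 bases 19 of 20 subunits were lower with a median of -0.13, against 57.8% of 187 other genes with a median of -0.08. These 187 genes were widely spread, with an interquartile range of 0.73, and 30.5% of them were higher by the fold rule. Small RNA genes were not left out of the other genes, so no difference from like genes is read below 600 bases. From 600 to 2000 bases the medians of subunits and other abundant genes thus differed by less than 0.05, and below 600 bases the shares lower lay farther apart. For comparison, 3 other families of abundant proteins were chosen after the members' values had been seen. As deposited 70 of 73 cytosolic ribosomal protein genes were lower with a median of -0.10, and 70 of 76 mitochondrial ones with a median of -0.09, against 39 and 37 lower after the sum scaling. Of 37 expressed proteasome subunit genes, 27 were lower as deposited with a median of -0.07, and 14 after the sum scaling. Of all expressed genes, 29.3% were lower after the sum scaling. Interquartile ranges were 0.066 for the cytosolic ribosomal, 0.115 for the mitochondrial ribosomal and 0.123 for the proteasome genes. Over the citric acid cycle genes described below it was 0.053, so a narrow spread was not particular to the subunits.

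**Figure D3:**
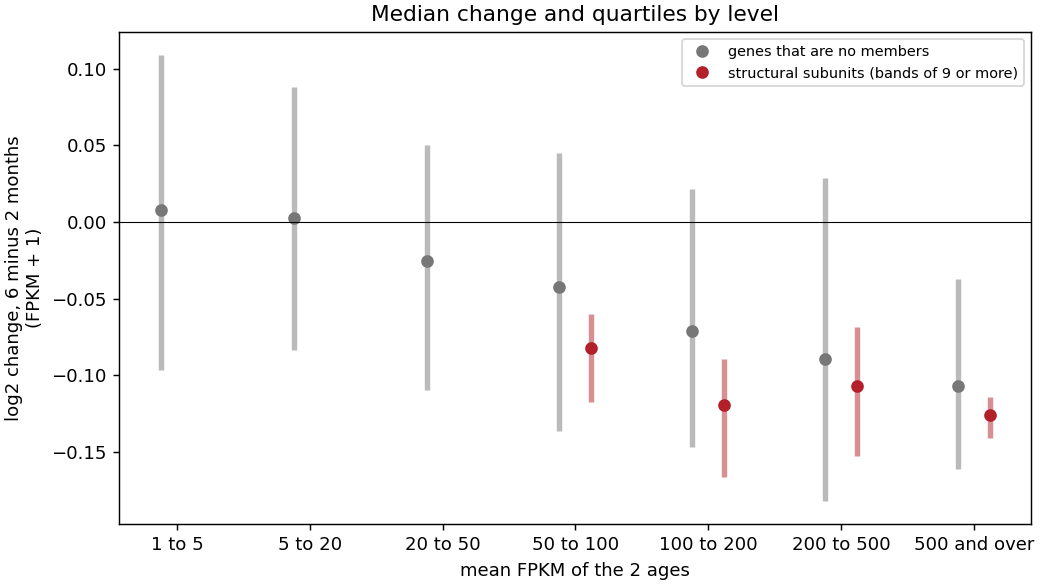
Median change in log2(FPKM + 1), 6 minus 2 months, as deposited (points) with quartiles (bars), by the mean FPKM of the gene, for genes that are no members (grey) and for structural subunits (red, bands with at least 9). Medians of the other genes go from 0.01 at 1 to 5 FPKM to -0.11 at 500 FPKM and over, and the subunits' bars are shorter; the sum scaling moves both groups up by up to 0.10.

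Complex I is the largest complex of the chain. Its highest subunits were Ndufb9 (271.6 FPKM at 2 months and 262.3 at 6 months), Ndufa3 (264.2 and 234.5) and Ndufs6 (201.6 and 192.4), accessory subunits that surround the catalytic core. The lowest was Ndufa11, at 19.2 and 19.0 FPKM. Its largest change downward was that of Ndufa6, from 202.1 to 171.4 FPKM (-0.24), and the largest upward that of Ndufv1, the subunit that binds NADH, from 81.0 to 84.5 FPKM (0.06). Neither reached the fold rule. By module, as deposited, 7 of 9 subunits of the NADH-oxidising N module, 6 of 6 of the ubiquinone-reducing Q module and 18 of 19 of the membrane arm were lower, with medians of -0.11, -0.13 and -0.11.

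Complex II is succinate dehydrogenase, which also works in the citric acid cycle. Its membrane anchors Sdhc (109.2 and 100.8 FPKM) and Sdhd (66.5 and 63.0 FPKM) and its iron-sulphur subunit Sdhb (105.8 and 96.4 FPKM) were lower at 6 months as deposited. The flavoprotein Sdha, the lowest of the 4, went the other way, at 51.9 FPKM at 2 months and 55.0 at 6 months (0.08). In complex III, the hinge protein gene Uqcrh was the highest, at 624.5 and 560.3 FPKM, and had the largest change (-0.16). Uqcr11 (364.1 and 347.1 FPKM) had the smallest, at -0.07, and Uqcrb was at 356.8 and 331.3 FPKM. The Rieske iron-sulphur protein gene Uqcrfs1 was the lowest, at 91.8 and 87.3 FPKM. All 8 genes of this complex were thus within -0.16 and -0.07 as deposited. After the sum scaling 6 of 8 were lower, against 29.3% of all expressed genes.

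Complex V had the highest member of all, Atp5k, a small subunit of the membrane part, at 816.5 FPKM at 2 months and 753.3 at 6 months (-0.12). The catalytic beta subunit Atp5b was at 590.8 and 574.3 FPKM (-0.04) and the alpha subunit Atp5a1 at 330.2 and 331.3 FPKM (0.00). The lowest was the stalk subunit Atp5f1, at 170.6 and 160.3 FPKM. Atp5l, another small subunit of the membrane part, had the largest change, from 522.2 to 447.1 FPKM (-0.22). It has 9 near-identical copies in the annotation, 8 of them pseudogenes, so its reads could have been divided among loci. As deposited, the median change was -0.04 over the 5 subunits of the F1 head and -0.10 over the 10 of the membrane part and stalk.

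The ring of subunit c turns with the flow of protons, and 3 genes encode the same mature protein with different targeting sequences. Atp5g3 was the highest at 476.9 and 466.6 FPKM, then Atp5g2 at 434.3 and 403.2 FPKM and Atp5g1 at 173.3 and 161.9 FPKM. The order was the same at both ages. Their shares of the summed FPKM, which do not depend on the scaling of the ages, were 44.0%, 40.0% and 16.0% at 2 months and 45.2%, 39.1% and 15.7% at 6 months. Atp5g2 has 3 near-identical copies in the annotation, 2 of them pseudogenes, while Atp5g1 and Atp5g3 have none. The reads of Atp5g2 could thus have been divided among loci, which would alter its share.

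Complex IV, as grouped here with Ndufa4l2 counted beside its paralogue Ndufa4, held all 3 members that passed the fold rule. Ndufa4, first assigned to complex I and now placed in complex IV, was the highest of the complex at 2 months and lay below Cox8a and Cox6b1 at 6 months. It stood at 717.2 FPKM at 2 months and 576.1 at 6 months, a difference of -19.7%, and its change of -0.32 was the largest downward among all members. The change was -0.29 after upper quartile scaling and -0.22 after the sum scaling, both short of the fold rule. Cox8a was at 636.5 and 583.4 FPKM and Cox6b1 at 616.8 and 584.1 FPKM.

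Ndufa4l2, a paralogue of Ndufa4 known to be induced by low oxygen and to lower complex I activity, went the opposite way. It was at 94.1 FPKM at 2 months and 131.4 FPKM at 6 months, 39.7% more, with a change of 0.48 as deposited and 0.57 after the sum scaling. The paralogue thus made up 11.6% of the summed FPKM of the pair at 2 months and 18.6% at 6 months, a share that no scaling of the ages changes. The pair summed to 811 FPKM at 2 months against 707 at 6 months. Of the other expressed genes of 100 to 200 FPKM, 5.62% were higher by the fold rule, and of those of 500 FPKM and over, 10.6% were lower by it. In GRCm38, Ndufa4l2 is at chr10:127514967-127517154 on the plus strand with 4 exons, and shares exon bases with Shmt2 on the opposite strand. Strand was not stated for the library kit, so reads of the shared bases cannot be told apart, and Shmt2 itself was at 30.5 FPKM at 2 months and 32.2 at 6 months. Ndufa4 is at chr6:11900292-11907497 on the minus strand with 4 exons and has no near-identical copy in the annotation. Cox4i2, the form of subunit 4 known from lung and from cells under low oxygen, was at 0.0967 FPKM at 2 months and 0.151 at 6 months. Of 8 markers of pericytes and smooth muscle, where Ndufa4l2 is also known to be expressed, 2 reached a mean of 1 FPKM (Acta2 and Cspg4), and their list summed to 3.55 FPKM at 2 months and 4.14 at 6 months.

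Cox8b, the muscle and brown fat form of subunit 8, was at 1.15 FPKM at 2 months against 3.18 at 6 months, a change of 0.96. It was 0.180% of the summed FPKM of Cox8a and Cox8b at 2 months and 0.541% at 6 months. Among other genes of 1 to 5 FPKM, 4.64% were higher by the fold rule. Cox8b is at chr7:140898945-140900446 on the minus strand, with 2 exons and a transcript of 360 bases, and Cox8a at chr19:7215153-7217616. The other muscle forms showed smaller differences. Cox7a1 was at 5.31 and 5.86 FPKM (0.12) and Cox6a2 at 0.539 and 0.641 FPKM. Their shares were 2.53% and 2.93% of Cox7a1 with Cox7a2, and 0.0908% and 0.117% of Cox6a2 with Cox6a1. The 3 muscle forms together summed to 6.99 FPKM at 2 months and 9.68 FPKM at 6 months.

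Of 17 skeletal muscle markers, 9 had a mean of at least 1 FPKM. All 9 were higher at 6 months with a median change of 0.78, and 7 passed the fold rule. The most abundant, Tnni2, changed least (11.2 and 11.9 FPKM, 0.08). Pvalb, under the filter, was lower at 6 months (0.725 and 0.424 FPKM). The list summed to 28.1 FPKM at 2 months and 44.1 FPKM at 6 months, no marker was at 0 at both ages, and the fast myosins Myh1, Myh2 and Myh4 were each below 0.3 FPKM. Of the 5 brown fat markers only Cidea reached a mean of 1 FPKM (3.48 FPKM at 2 months and 0.879 at 6 months), Ucp1 was below 0.06 FPKM at both ages and Elovl3 was at 0. Of the 6 adipocyte markers only Fabp4 did (0.692 and 3.48 FPKM). The part of muscle or fat RNA in the values of Cox8b, Cox7a1 and Cox6a2 was not tested.

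**Figure D4:**
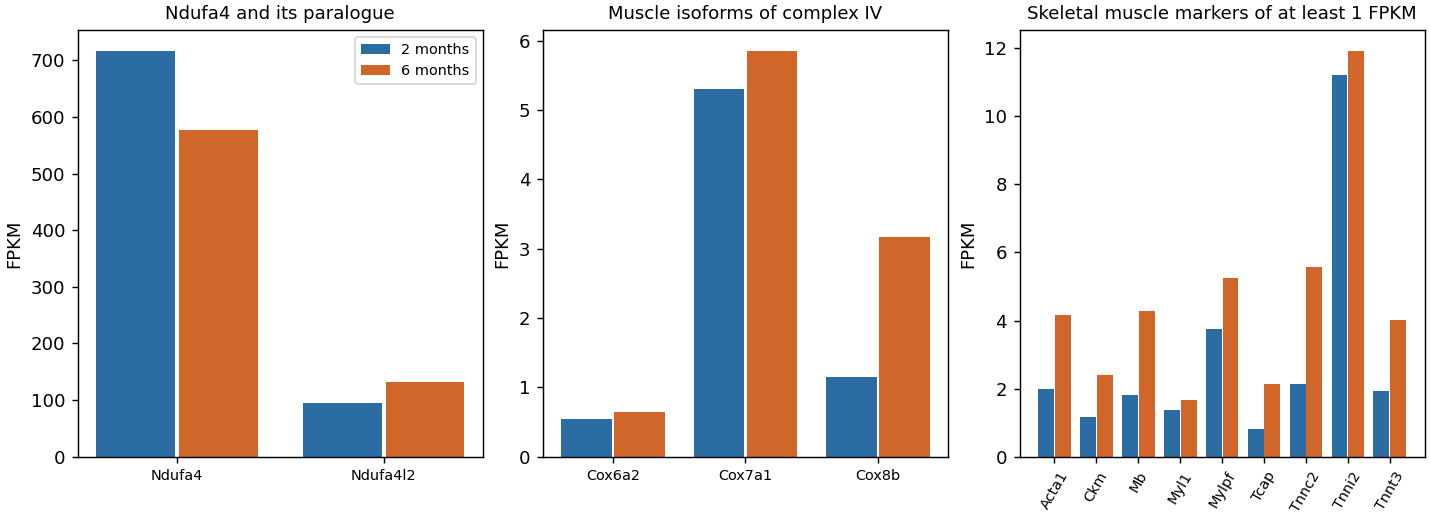
FPKM at 2 months (blue) and 6 months (orange), 1 value per age and no error bars, of Ndufa4 and Ndufa4l2 (left), of the muscle forms of complex IV (middle) and of the expressed skeletal muscle markers (right), each panel with its own axis from 0. Ndufa4 is lower (717.2 and 576.1) and Ndufa4l2 higher (94.1 and 131.4) at 6 months as deposited, and Cox8b (1.15 and 3.18) and the 9 muscle markers are higher.

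The testis forms were low. Cox6b2 was at 5.07 FPKM at 2 months and 4.07 FPKM at 6 months (-0.26), Cox7b2 at 0.0960 and 0.319 FPKM, and Cox8c was listed at 0 at both ages. None of 6 testis germ cell markers reached a mean of 1 FPKM. The 7 widely expressed partners of the tissue forms (Cox4i1, Cox6a1, Cox6b1, Cox7a2, Cox7b, Cox8a and Ndufa4) were all lower as deposited, with a median change of -0.13. After the sum scaling 5 of 7 were lower, against 29.3% of all expressed genes.

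The promoters of Cox8b and Ndufa4 held no match to any of the 6 cores in the window searched, and their 120 bases before the RefSeq start, both on the minus strand of GRCm38.p6, are shown for comparison with the sequences above.
Cox8b, chr7:140900447-140900566: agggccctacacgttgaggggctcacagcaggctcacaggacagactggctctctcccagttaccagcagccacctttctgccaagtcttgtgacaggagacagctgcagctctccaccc
Ndufa4, chr6:11907451-11907570: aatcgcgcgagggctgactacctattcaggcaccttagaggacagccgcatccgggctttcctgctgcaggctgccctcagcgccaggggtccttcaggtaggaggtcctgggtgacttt

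Assembly factors insert cofactors and join the subunits. Among the members of this kind, the copper chaperone Cox17 was the highest, at 96.7 FPKM at 2 months and 88.5 at 6 months, then Cox20 (87.8 and 84.3 FPKM) and Cox14 (86.9 and 78.3 FPKM), and Ndufaf5 was the lowest, at 3.54 and 3.20 FPKM. The largest changes were -0.23 for Cox16 and 0.02 for Ndufaf6, so none passed the fold rule. Of 26 other expressed assembly factors with other names, 14 were lower and 12 higher as deposited, with a median of -0.01. After the sum scaling 6 of these 26 were lower, against 29.3% of all expressed genes. Pet117 passed the rule upward (2.29 and 3.78 FPKM, 0.54) and Coa3, a complex IV factor and the most abundant of them, downward (80.2 and 64.1 FPKM, -0.32). Acad9, an assembly factor of complex I, followed at 36.3 and 39.6 FPKM.

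The other genes of energy metabolism did not all share the members' shift (plot of lists of energy metabolism). Of the 17 genes that feed and run the citric acid cycle, 13 were lower as deposited with a median of -0.06. After the sum scaling 4 of the 17 were lower, against 29.3% of all expressed genes. Mdh2, malate dehydrogenase, was at 262.9 and 252.1 FPKM, and citrate synthase, Cs, at 126.4 and 126.5 FPKM. Of 15 electron and nucleotide carriers and related genes, 10 were lower with a median of -0.03, and 5 after the sum scaling. The ADP/ATP carrier Slc25a5 was at 508.6 and 487.4 FPKM, and Atpif1, the inhibitor of ATP synthase, at 477.9 and 421.3 FPKM.

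Glycolysis, which makes ATP in the cytosol, lay on the other side. Of the 19 genes listed for it, Eno1 was not found by that name. Of the other 18 genes 17 were higher at 6 months as deposited and under each scaling tried, and the median change was 0.17 as deposited. By the fold rule 2 were higher, and both are muscle forms: Pfkm, of phosphofructokinase (9.36 and 12.04 FPKM, 0.33), and Pgam2, of phosphoglycerate mutase (1.80 and 2.70 FPKM, 0.40). The 9 expressed skeletal muscle markers were higher, with the median of 0.78 given above, and the part of muscle RNA in the glycolysis values was not tested. The most abundant were Aldoa (446.9 and 469.5 FPKM) and Pkm (406.1 and 447.7 FPKM). Ldhb alone was lower, at 30.0 and 27.2 FPKM. The median change of glycolysis exceeded that of the structural subunits by 0.28, a gap that 1 scaling factor for all genes leaves in place by construction.

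**Figure D5:**
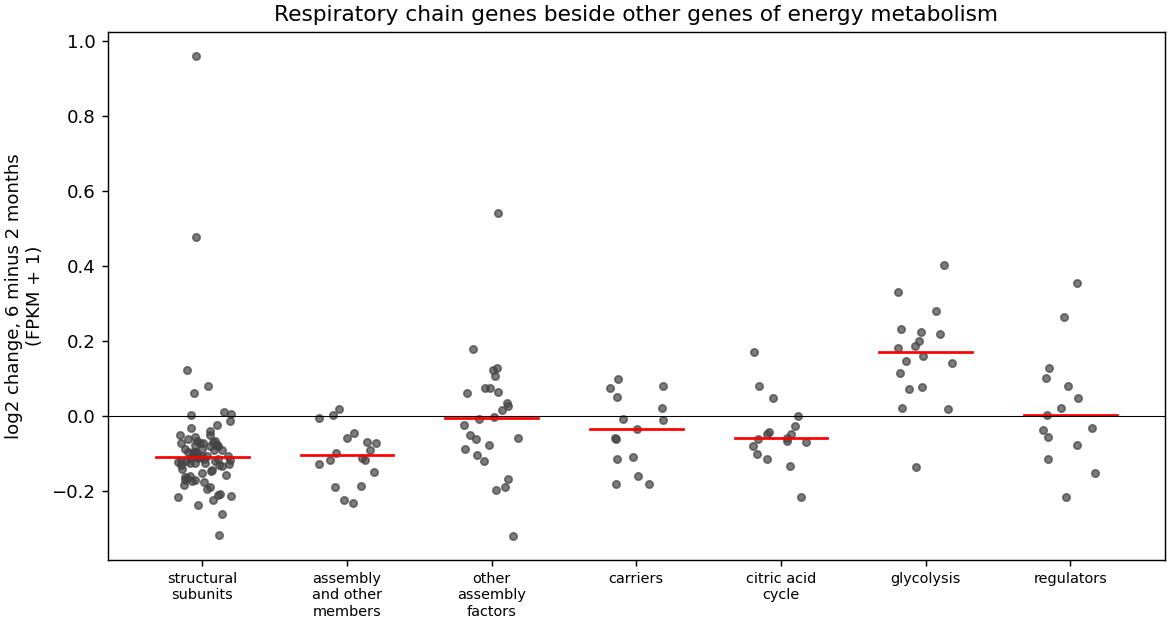
Change in log2(FPKM + 1), 6 minus 2 months, as deposited, of each expressed gene (points) in the members and in lists of related genes, with medians (red lines). The structural subunits centre on -0.11 and glycolysis on 0.17; the sum scaling moves every list up by up to 0.10, which puts the subunits at -0.01 and by construction leaves the gap of 0.28.

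Regulators of mitochondrial genes were low and mixed: 7 of 15 expressed ones were lower and 8 higher as deposited, with a median of 0.00. After the sum scaling 3 of the 15 were lower, against 29.3% of all expressed genes. Ppara, a regulator of fatty acid oxidation, passed the fold rule at 1.15 and 1.74 FPKM (0.35). The most abundant were Ppard (33.7 and 32.9 FPKM) and Esrra, which encodes ERR alpha (32.4 and 34.9 FPKM). The uncoupling protein gene Ucp2 was at 140.8 and 134.3 FPKM.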

How the data were processed

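Taste cell RNA was polyA-selected and sequenced from 6 pooled libraries. The authors mapped reads to GRCm38/mm10 with TopHat2 2.0.7, estimated RefSeq genes with Cufflinks 2.1.1 and compared the ages with Cuffdiff. The deposited table holds 1 FPKM value per age over 3 libraries. A column of unadjusted p-values holds the authors' own comparison and was not used. Cuffdiff's library normalization is not given in the sources used here. The columns were matched to the ages by the group letters in the sample titles.

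Changes were computed as log2(FPKM + 1) with Python 3.11.15, pandas 2.3.3 and scipy 1.17.1, with a minimum mean of 1 FPKM and a fold rule of 0.3. Members and lists were chosen with earlier results of these data known. Named genes were those past the fold rule, the 3 highest and the lowest and the largest changes in each complex, all tissue forms and subunit c genes, and in the related lists those past the rule and the 2 highest. The markers named, Eno3, Krt6a, Ldhb and Shmt2 were added after their values were seen. Genes were placed by GENCODE M21, length is that of the longest transcript matched to a RefSeq mRNA, and near-identical copies (at least 95% identity over 50% of the length) were found with BLAST+ 2.17.0. Promoters are RefSeq's, and 83 of 101 members had one. Members were matched to promoters by symbol or synonym, and the expressed genes set beside them by symbol only. The arithmetic of the calls and medians was checked on values with planted changes and no noise. That check says nothing about the error of the calls between libraries. Alternatives were the pseudocount, the filter, the fold, 4 scalings and subsets of members.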

Additional observations from a re-analysis of the deposited data

How the results depend on the processing

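Only 1 value per age was used here, so no replicate was left out in turn, and every count and median lacks an error between libraries. No paired analysis was possible because each age has a single column. Depth is unknown, and low genes such as Cox8b rest on an unknown number of reads. With the sum scaling, medians of related lists changed sign: citric acid cycle genes from -0.06 to 0.04, carriers from -0.03 to 0.06, other assembly factors from -0.01 to 0.09, mitochondrial ribosomal protein genes from -0.09 to 0.00 and proteasome subunits from -0.07 to 0.01. The median of all expressed genes changed sign as well, from -0.01 to 0.07, so the sign changes are not particular to these lists. The median change of the structural subunits was -0.11 as deposited, -0.0886 with upper quartile scaling, -0.0148 with the sum scaling, -0.0976 when centred on the median gene, -0.111 with a pseudocount of 0.1, -0.107 with no filter, -0.111 without tissue isoforms and -0.107 with transcripts of at least 600 bases. Chosen after seeing the data, the sum scaling that also leaves out genes at 0 in 1 age gave -0.0228 and leaving out members with near-identical copies gave -0.110. The share of subunits higher at 6 months was 10.1%, and 41.8% and 34.2% with these 2 sum scalings. Of all expressed genes, 29.3% and 31.3% were lower with these 2 sum scalings. The count of members lower by the fold rule was 1, and became 2 with a pseudocount of 0.1, 0 with upper quartile scaling and with both sum scalings, 10 at a log2 change of 0.2 and 0 at 0.5. The count higher was 2, and became 1 with a mean of at least 5 FPKM, with transcripts of at least 600 bases and at 0.5, and 0 without tissue isoforms, which leaves out both genes. The change of the summed muscle forms was 0.42, and 0.463 with a pseudocount of 0.1 and 0.437 with upper quartile scaling.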
